A study of Mus musculus with 20 samples.

Results

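The 38 genes described here encode the machinery of DNA replication licensing, mitosis and cytokinesis, and all 38 were found by symbol and gene identifier among the 25851 genes measured. RNA was sequenced from hearts of 20 male mice aged 14 to 16 weeks, in 4 groups of 5 mice, and every library carries the same batch label. The groups were sedentary wild-type mice (WT_Sed), sedentary mice labelled as having a cardiomyocyte-specific PGC-1α knockout (KO_Sed), wild-type mice after 6 weeks of running on a voluntary wheel (WT_Ex) and labelled knockout mice after the same training (KO_Ex). The promoter that drives the deletion, the exons removed, the strain and the part of the heart taken are not given in the sources used here. Ppargc1a, which encodes PGC-1α, was not lower in the labelled knockout libraries: it lay at 9.39 to 15.4 FPKM in WT_Sed, 18.2 to 27.9 in KO_Sed, 10.4 to 21.9 in WT_Ex and 18.7 to 26.9 in KO_Ex. FPKM, fragments per kilobase of exon and per unit of sequencing depth, covers every exon of a gene, so this level does not check a deletion of some of them. The mice are therefore called labelled knockout throughout.

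A cell that will divide first loads the MCM2 to MCM7 helicase onto replication origins, makes deoxynucleotides for DNA synthesis, and then builds up cyclin A and cyclin B with the kinase CDK1 to enter mitosis. Chromosomes are condensed, attached through kinetochores to a spindle built by kinesins and Aurora and Polo kinases, held by the spindle checkpoint, and released when the anaphase promoting complex destroys its targets, after which a contractile ring divides the cell. Adult mouse cardiomyocytes rarely divide, and most dividing cells of a normal adult heart are of other types. Transcription of most of these genes is tied to the cycle by E2F factors at the start of DNA synthesis, and by NF-Y at CCAAT boxes together with the DREAM and MuvB complexes at CHR elements later on.

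The stretches just before the gene starts are shown because many of these genes were higher together between trained genotypes, and promoters of cell cycle genes are known to carry a few shared letters. RefSeq windows of 250 bases upstream (build GRCm38.p6) matched 33 of the 38 genes, and 5 had no entry (Tpx2, Ccna2, Aurkb, Kif20a and Mcm4). Ect2, Mcm7 and Prc1 had 2 windows each, so the members had 36 windows. Both strands were searched for CCAAT, for TTTGAA as the CHR element, and for TTTCCCGC, TTTCGCGC, TTTGCCGC and TTTGGCGC as E2F letters. CCAAT stood in 31 of the 36 member windows, against 33.8% of 32851 windows of all genes. TTTGAA stood in 12 of the 36, each of which also held CCAAT, against 16.0% of all windows. The E2F letters stood in 4 of the 36 (Cdk1, Mcm5, Mcm6 and 1 of the Mcm7 windows), against 1.86%. A match is a description of the letters and not a bound site. Any tie between the letters and the differences between groups was not tested. Below are the windows of Ccnb2 (chr9:70421555-70421804), Top2a (chr11:99024190-99024439), Cdk1 (chr10:69352913-69353162), Mcm6 (chr1:128359706-128359955) and Cenpf (chr1:189688087-189688336), all on the minus strand, written 5′ to 3′ with the searched letters, read on either strand, in capitals.
Ccnb2: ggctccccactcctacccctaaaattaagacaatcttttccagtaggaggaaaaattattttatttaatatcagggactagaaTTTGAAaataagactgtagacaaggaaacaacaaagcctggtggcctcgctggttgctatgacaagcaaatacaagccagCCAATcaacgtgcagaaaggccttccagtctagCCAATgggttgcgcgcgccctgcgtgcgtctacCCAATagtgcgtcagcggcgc
Top2a: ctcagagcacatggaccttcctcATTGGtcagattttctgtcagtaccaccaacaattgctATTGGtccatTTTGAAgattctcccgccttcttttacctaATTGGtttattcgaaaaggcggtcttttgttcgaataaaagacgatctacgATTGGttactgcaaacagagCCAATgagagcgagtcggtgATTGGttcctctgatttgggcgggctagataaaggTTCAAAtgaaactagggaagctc
Cdk1: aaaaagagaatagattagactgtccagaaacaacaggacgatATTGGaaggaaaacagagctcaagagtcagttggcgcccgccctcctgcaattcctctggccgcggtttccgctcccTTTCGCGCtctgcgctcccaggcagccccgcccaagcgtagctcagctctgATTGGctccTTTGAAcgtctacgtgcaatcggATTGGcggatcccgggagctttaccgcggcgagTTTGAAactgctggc
Mcm6: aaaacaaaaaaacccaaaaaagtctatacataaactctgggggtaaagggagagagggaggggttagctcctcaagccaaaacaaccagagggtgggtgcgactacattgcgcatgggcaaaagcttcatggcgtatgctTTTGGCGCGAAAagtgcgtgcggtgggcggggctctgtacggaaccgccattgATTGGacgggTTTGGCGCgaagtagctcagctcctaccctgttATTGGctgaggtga
Cenpf: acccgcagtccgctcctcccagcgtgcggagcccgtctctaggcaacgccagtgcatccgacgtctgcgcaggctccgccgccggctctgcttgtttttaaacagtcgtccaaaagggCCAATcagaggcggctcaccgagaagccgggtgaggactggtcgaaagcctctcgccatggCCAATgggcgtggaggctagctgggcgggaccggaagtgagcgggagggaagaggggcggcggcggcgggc
Ccnb2 held CCAAT at 87, 54 and 21 bases before the start, 33 bases apart, and TTTGAA at 167. Cdk1 held all 3 kinds of letters. Mcm6 held CCAAT and E2F letters without TTTGAA. Cenpf, the one member whose mean was lower in both labelled knockout groups, held CCAAT and neither of the others. So did genes whose means were higher in both groups, such as Ccnb1, Aurka, Plk1, Rrm2 and Mcm3.

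Whole-library facts bear on how these values can be read. Read totals recovered from the FPKM were 14.2 to 30.4 M per library, and the 36 members whose values convert to whole reads (not Kif11 and Kif20a) together took 1859 to 6986 reads of a library. Reads of 1 of these over all 20 libraries ran from 244 (Ncapg) to 10169 (Cenpf), and 1 of 760 values was 0 (Ccnb1 in WT_Ex 2). Of the trained libraries 4 held over 1000 FPKM of Myl7, an atrial myosin light chain: WT_Ex 4 and 5 and KO_Ex 2 and 5. The clock gene Arntl was above 2 FPKM in 5 libraries, namely WT_Sed 1 to 4 and KO_Sed 1. Results are given below without either set where that changed them, a choice made after seeing the data. Without the Arntl set only 1 WT_Sed library is left. Exons of 13 members overlap another gene, and for 6 of them the overlap is at least 10% of the exon length: Kif20a with Cdc23, Ube2c with Tnnc2, Kif4 with Pdzd11, Ncapg with Lcorl, Ccna2 with Exosc9 and Prc1 with Rccd1. All 6 partners lie on the opposite strand, and whether counting used strand is not stated, so their reads may be shared.

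Added up, the FPKM of the 38 genes was higher in labelled knockout hearts at rest and higher still after training. The sums were 24.5, 24.8, 23.5, 24.5 and 26.9 in WT_Sed and 34.7, 46.7, 37.1, 45.7 and 37.3 in KO_Sed. They were 29.4, 28.7, 32.5, 24.4 and 24.6 in WT_Ex and 48.2, 37.8, 64.4, 64.2 and 44.5 in KO_Ex. Every labelled knockout library lay above every wild-type library. Group means were 24.8 ± 1.24 (SD, n = 5), 40.3 ± 5.53, 27.9 ± 3.44 and 51.8 ± 12. The mean was 1.62 times as high in KO_Sed as in WT_Sed and 1.86 times as high in KO_Ex as in WT_Ex. After training it was 1.12 times the sedentary mean in wild-type mice and 1.29 times in labelled knockout mice, where the ranges overlapped. A sum over genes chosen as a group was not tested. The lowest KO_Ex sums belonged to the 2 libraries with high Myl7, and without the 4 such libraries the trained means were 30.2 ± 2.04 and 58.9 ± 9.30 (n = 3). These are bulk samples, in which more cells of a dividing type and more RNA per cell cannot be told apart.

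**Figure D1:**
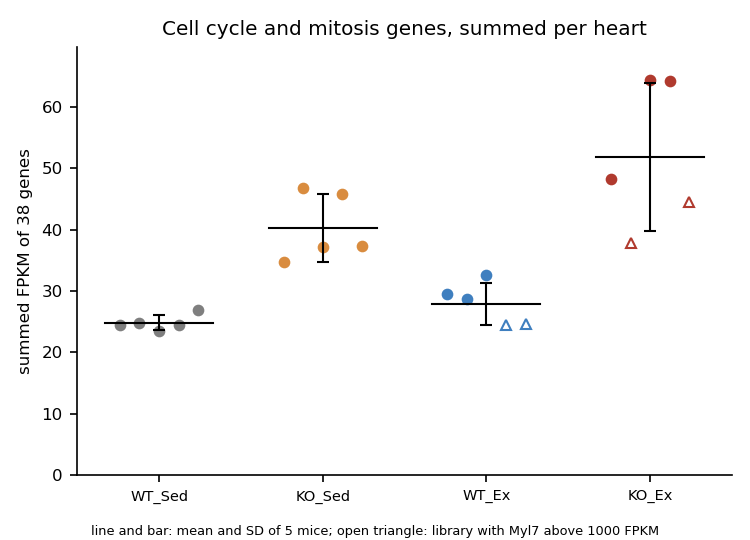
Summed FPKM of the 38 genes in each library (vertical axis, FPKM) by group, with circles for libraries, open triangles for the 4 libraries with Myl7 above 1000 FPKM, and a line and bar for the mean and SD of 5. The 10 labelled knockout libraries sit between 34.7 and 64.4, above the wild-type libraries at 23.5 to 32.5.

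Levels were low and uneven, with gene means over all 20 libraries from 0.0821 FPKM (Ncapg) to 3.22 FPKM (Mcm7). Of the 38 genes 24 reached a mean of 0.5 FPKM and entered the main test, limma on log2(FPKM + 0.5) with Benjamini-Hochberg adjustment over 13723 genes. The other 14 (Ccnb1, Bub1, Aurkb, Kif11, Kif23, Kif4, Cenpe, Prc1, Ncapg, Ncaph, Anln, Ect2, Cdca8 and Hmmr) were tested only in the same fit run over all 25851 genes without a minimum. Fold changes below are on that log2(FPKM + 0.5) scale, with ± for the standard error, and the added 0.5 makes them smaller than the ratio of means for genes near or under 0.5 FPKM. A comparison at rest sets KO_Sed against WT_Sed, and one after training sets KO_Ex against WT_Ex. In the fit over all genes the adjusted p passed 0.05, all in the direction of higher, for 11 of 38 members between sedentary genotypes (3.37% of all genes), 31 of 38 between trained genotypes (8.18%), 6 of 38 for training in labelled knockout mice (7.3%) and 0 of 38 for training in wild-type mice (0.805%). The difference between the training changes, the interaction, passed for 0 of 38 (0.789% higher, 1.64% lower), and limma's voom on recovered reads gave 0 of 36 for it (0.517% higher). At an unadjusted p under 0.05 there were 22, 35, 21, 1 and 7 members higher in the same 5 comparisons, and Cenpf alone was lower, in the trained genotype and the labelled knockout training comparisons. In the order sedentary genotypes, trained genotypes, training in labelled knockout mice, training in wild-type mice and interaction, the median log2 fold change of the 38 was 0.36, 0.62, 0.31, 0.09 and 0.22, and that of all genes 0.00, 0.01, 0.01, -0.00 and 0.01.

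In the main test the counts were 13 of 24 between sedentary genotypes (6.96% of genes tested), 20 of 24 between trained genotypes (12.5%), 5 of 24 for training in labelled knockout mice (12.1%), and 0 of 24 for training in wild-type mice (2.94%) and for the interaction (2.32%). The minimum is a mean over all 20 libraries, so a gene can enter this test through high labelled knockout values. Both wild-type means were under 0.5 FPKM for Top2a, Tpx2, Cdk1, Plk1, Nusap1, Racgap1, Bub1b and Birc5. These main counts therefore depend in part on the minimum, and the fit over all genes does not. In wild-type training 1 member and in the interaction 4 had an unadjusted p under 0.05 in that fit, and voom gave 0 of 23 for both (2.38 and 1.75% of genes higher). No member was lower past the threshold in any of the 5 comparisons, where 6.32, 15.4, 16.3, 2.53 and 5% of genes tested were. Group ranges did not touch, with the labelled knockout libraries on top, for 17 of 38 members in the sedentary hearts (3.41% of all genes) and 17 of 38 in the trained hearts (5.99%). Training gave such a separation for 1 member in wild-type mice (Tk1; 1.52%) and 1 in labelled knockout mice (Anln; 6.31%). KO_Ex had the highest of the 4 group means for 35 of the 38 genes, the exceptions being Cenpf, Mcm2 and Mcm7. Without the 5 libraries with high Arntl the sedentary comparison has 1 WT_Sed library, which is then assumed to vary like the other groups, and 0 of 24 members passed (0.0729% of genes tested were higher). The median log2 fold change of these 24 was 0.42 there and 0.41 in the main fit, and 6 had an unadjusted p under 0.05, against 17. With log2 Arntl as a covariate 4 passed, Mcm2, Mcm4, Rrm2 and Ube2c (1.98% of genes tested), with a median of 0.46 and 17 at an unadjusted p under 0.05. The log2 ratio of summed FPKM was 0.64 without the 5 libraries and 0.70 with them.

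**Figure D2:**
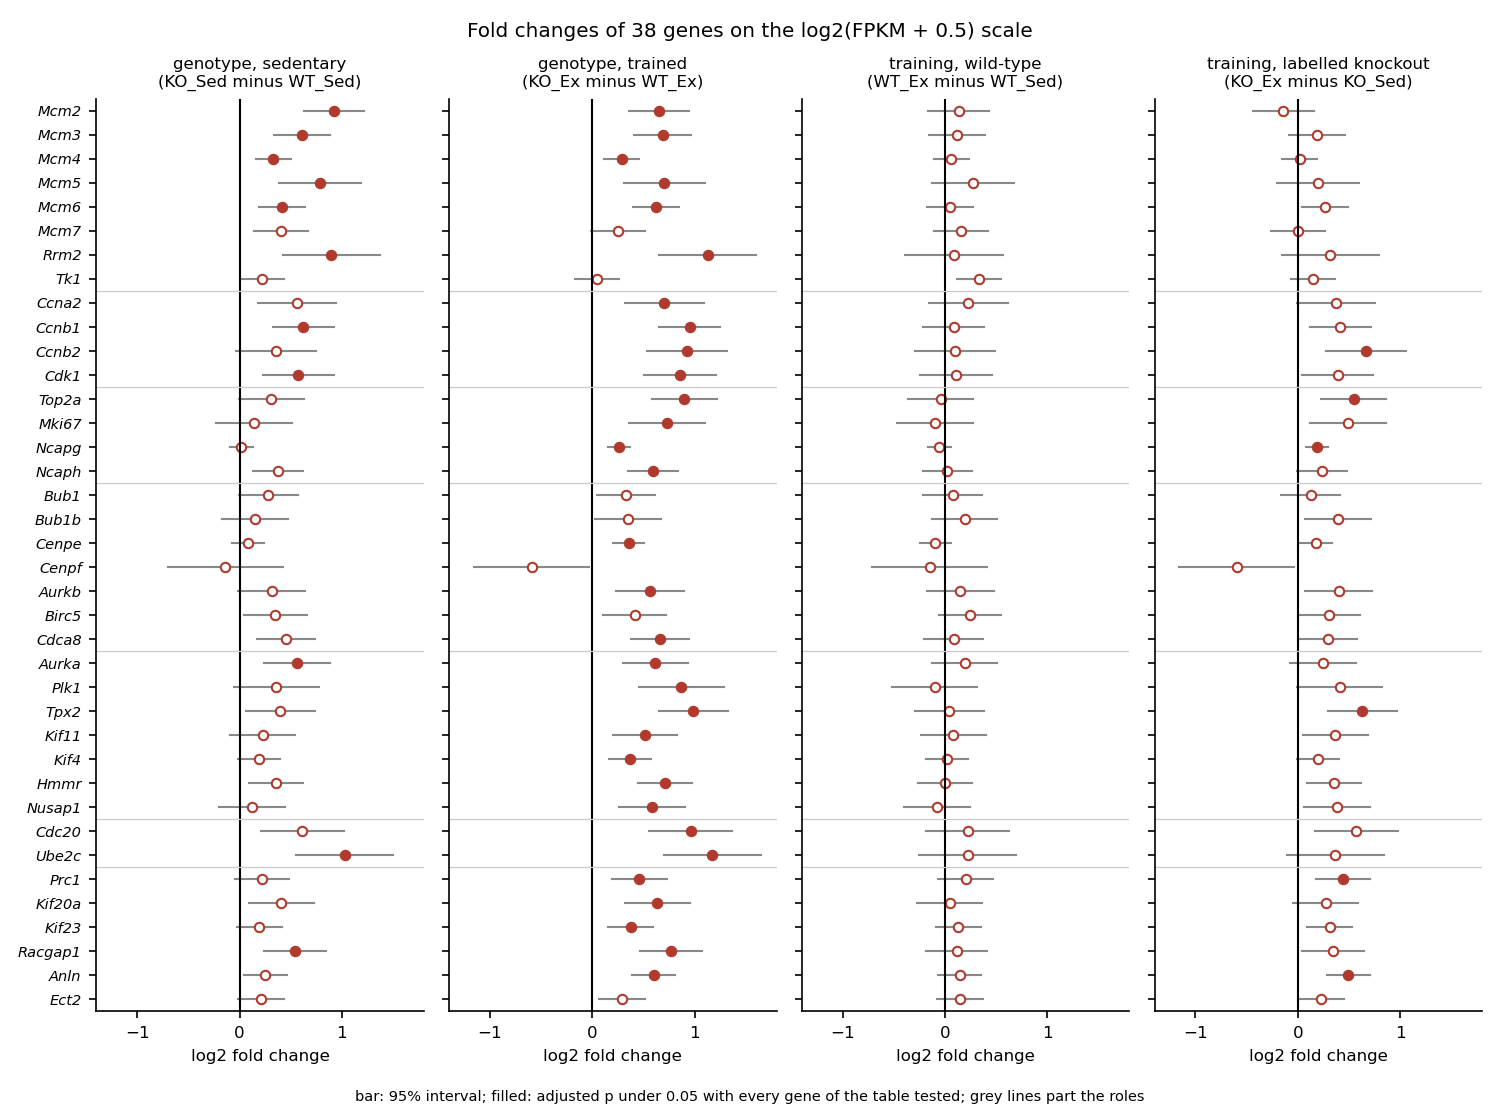
Log2 fold change of each of the 38 genes on the log2(FPKM + 0.5) scale (horizontal axis) in the 4 comparisons, from the fit over all 25851 genes, with bars for the 95% interval and filled points for an adjusted p under 0.05. Filled points are most numerous between trained genotypes, 31 of 38, and absent for training in wild-type mice.

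Licensing and DNA synthesis genes carried the most RNA, 13.8 of the 24.8 summed FPKM in WT_Sed. The 8 genes summed to 13.8, 22.2, 15.6 and 24.4 FPKM on average in WT_Sed, KO_Sed, WT_Ex and KO_Ex, so the step between genotypes was 1.61 times at rest and 1.57 times after training. In the main test 7 of the 8 were higher in KO_Sed and 6 of the 8 in KO_Ex, and none passed for training in either genotype. Mcm2 (ENSMUSG00000002870, minus strand of chromosome 6, 88883474 to 88898780), a helicase subunit, read 1.51, 1.51, 1.01, 1.92 and 1.70 FPKM in WT_Sed and 2.87, 3.81, 2.64, 3.93 and 3.44 in KO_Sed. In trained hearts it read 2.03, 1.29, 2.17, 1.33 and 1.80 in WT_Ex and 2.81, 2.86, 3.14, 3.41 and 2.59 in KO_Ex. Neither pair of genotypes overlapped. At rest it had the lowest adjusted p of the 6 helicase genes (log2 fold change 0.92 ± 0.14, adjusted p = 0.000243), and it also passed after training (log2 fold change 0.65 ± 0.14, adjusted p = 0.00132).

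Mcm6 (ENSMUSG00000026355, minus strand of chromosome 1, 128331590 to 128359664), whose promoter is printed above, read 2.11, 2.30, 1.73, 2.27 and 2.28 FPKM in WT_Sed and 2.47, 2.85, 2.96, 3.20 and 3.60 in KO_Sed. It read 2.13, 2.28, 1.85, 2.46 and 2.42 in WT_Ex and 3.34, 3.23, 4.11, 4.65 and 3.31 in KO_Ex. Every labelled knockout value was above the wild-type values of the same training state, and Mcm6 was higher both at rest (log2 fold change 0.41 ± 0.11, adjusted p = 0.0145) and after training (log2 fold change 0.63 ± 0.11, adjusted p = 0.000164). Mcm5, another subunit of the ring, read 0.548, 1.00, 0.789, 1.16 and 1.48 in WT_Sed and 1.19, 2.17, 2.14, 2.46 and 2.39 in KO_Sed, where the first library stood well below its group and within the WT_Sed range. Mcm5 read 1.06, 1.65, 1.32, 1.15 and 1.21 in WT_Ex and 2.23, 1.82, 3.18, 3.23 and 1.79 in KO_Ex, and it was higher in both comparisons of genotype (log2 fold change 0.79 ± 0.19, adjusted p = 0.00872 at rest; log2 fold change 0.70 ± 0.19, adjusted p = 0.00741 after training).

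The remaining helicase subunits were also higher at rest. Mcm3 read 1.90, 1.85, 1.48, 1.95 and 2.57 FPKM in WT_Sed and 2.38, 3.66, 3.22, 3.55 and 3.39 in KO_Sed, and 1.89, 2.29, 2.27, 2.24 and 1.98 in WT_Ex and 3.29, 3.15, 4.45, 4.83 and 3.20 in KO_Ex. The genotypes overlapped at rest, through KO_Sed 1, and not after training, and both comparisons passed (log2 fold change 0.61 ± 0.13, adjusted p = 0.00383 at rest; log2 fold change 0.69 ± 0.13, adjusted p = 0.000446 after training). Mcm4 read 2.78, 2.28, 2.72, 2.50 and 2.10 FPKM in WT_Sed and 3.10, 3.51, 3.19, 3.29 and 3.04 in KO_Sed, and 2.94, 2.45, 2.19, 2.95 and 2.50 in WT_Ex and 3.45, 3.31, 3.18, 3.37 and 3.05 in KO_Ex. No genotype pair overlapped, over a narrow range of levels, and both passed (log2 fold change 0.33 ± 0.08, adjusted p = 0.0101 at rest; log2 fold change 0.29 ± 0.08, adjusted p = 0.0105 after training). Mcm7, the most abundant of the 38 genes, read 2.57, 2.68, 1.79, 3.36 and 2.79 FPKM in WT_Sed and 2.80, 4.14, 3.39, 4.36 and 3.54 in KO_Sed. After training Mcm7 read 2.73, 3.31, 2.89, 3.25 and 2.64 in WT_Ex and 3.23, 3.13, 4.12, 3.92 and 3.71 in KO_Ex, and the ranges overlapped in both comparisons. Mcm7 passed at rest in the main test alone (log2 fold change 0.41 ± 0.12, adjusted p = 0.0360; adjusted p = 0.0630 over all genes) and not after training (log2 fold change 0.25 ± 0.12, adjusted p = 0.152), and its interaction did not pass (log2 fold change -0.16 ± 0.18, adjusted p = 0.575).

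Rrm2 (ENSMUSG00000020649, plus strand of chromosome 12, 24708241 to 24714146) encodes the small subunit of ribonucleotide reductase, which makes deoxynucleotides. It read 1.14, 1.19, 0.80, 0.750 and 1.12 FPKM in WT_Sed and 2.32, 3.55, 1.68, 2.59 and 1.63 in KO_Sed. After training it read 1.26, 0.844, 2.08, 0.598 and 0.981 in WT_Ex and 3.10, 1.75, 4.07, 3.54 and 2.80 in KO_Ex. KO_Ex 2 lay within the WT_Ex range, and the sedentary genotypes did not overlap. Rrm2 was higher in labelled knockout hearts at rest (log2 fold change 0.90 ± 0.22, adjusted p = 0.0113) and after training (log2 fold change 1.13 ± 0.22, adjusted p = 0.000698). For Tk1, thymidine kinase of the salvage route, the groups that stood apart were those of training in wild-type mice. Tk1 read 1.01, 0.901, 1.15, 1.21 and 1.05 in WT_Sed and 1.69, 1.5, 1.29, 1.29 and 1.56 in WT_Ex, with no overlap, and 1.2, 1.34, 1.65, 1.26 and 1.18 in KO_Sed and 1.42, 1.33, 1.31, 1.74 and 1.86 in KO_Ex. Its training change in wild-type mice did not pass (log2 fold change 0.33 ± 0.10, adjusted p = 0.0540), and it passed with a pseudocount of 0.1, without a variance trend, or with array weights. Between trained genotypes the difference was 0.04 with a 95% interval of -0.16 to 0.25.

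Cyclins and their kinase had larger ratios between groups than the licensing genes, and differences between roles were not tested. Ccna2, Ccnb1, Ccnb2 and Cdk1 summed to 1.38, 2.85, 1.72 and 4.85 FPKM, which is 2.06 times as much in KO_Sed as in WT_Sed and 2.82 times as much in KO_Ex as in WT_Ex. Over all genes 2 of the 4 were higher at rest, 4 of 4 after training, and Ccnb2 alone rose with training in labelled knockout mice. Cdk1 (ENSMUSG00000019942, minus strand of chromosome 10, 69335146 to 69352938), the kinase that drives entry into mitosis, read 0.196, 0.253, 0.248, 0.200 and 0.228 FPKM in WT_Sed and 0.469, 0.847, 0.327, 0.816 and 0.528 in KO_Sed. It read 0.415, 0.215, 0.486, 0.162 and 0.175 in WT_Ex and 0.905, 0.472, 1.19, 1.34 and 0.822 in KO_Ex. The groups did not overlap at rest, after training KO_Ex 2 lay just under the highest WT_Ex library, and both comparisons passed (log2 fold change 0.57 ± 0.17, adjusted p = 0.0318 at rest; log2 fold change 0.86 ± 0.17, adjusted p = 0.000797 after training). Within KO_Ex the spread was wide, and libraries 2 and 5, those with high Myl7, were the lowest.

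Ccnb2 (ENSMUSG00000032218, minus strand of chromosome 9, 70407692 to 70421547), a B-type cyclin whose window above holds CCAAT 3 times and TTTGAA once, read 0.765, 1.02, 0.839, 0.536 and 0.471 FPKM in WT_Sed and 0.819, 1.56, 0.591, 1.43 and 1.06 in KO_Sed. It read 0.815, 0.972, 0.784, 0.733 and 0.693 in WT_Ex and 1.95, 1.43, 2.56, 2.78 and 1.41 in KO_Ex. The 5 KO_Ex values were above all WT_Ex values, whereas the sedentary genotypes overlapped. It passed between trained genotypes (log2 fold change 0.93 ± 0.18, adjusted p = 0.000715) and for training in labelled knockout mice (log2 fold change 0.67 ± 0.18, adjusted p = 0.00942), and it did not pass at rest (log2 fold change 0.36 ± 0.18, adjusted p = 0.199). Ccnb1, the main mitotic cyclin, was scarcer, with 0.109, 0.0889, 0.0415, 0.0519 and 0.0747 FPKM in WT_Sed and 0.207, 0.602, 0.383, 0.518 and 0.256 in KO_Sed. In trained hearts Ccnb1 read 0.201, 0, 0.228, 0.0760 and 0.0629 in WT_Ex and 0.597, 0.398, 0.919, 0.950 and 0.609 in KO_Ex. The genotypes did not overlap in either state. In the fit over all genes Ccnb1 was higher at rest (log2 fold change 0.62 ± 0.14, adjusted p = 0.0125) and after training (log2 fold change 0.95 ± 0.14, adjusted p = 9.01e-05), and the trained means stood 6.11 times apart at very low levels. Ccna2, the cyclin of DNA synthesis and early mitosis, read 0.536, 0.337, 0.286, 0.281 and 0.342 FPKM in WT_Sed and 0.688, 0.987, 0.601, 0.969 and 0.590 in KO_Sed. It read 0.587, 0.677, 0.720, 0.301 and 0.292 in WT_Ex and 1.09, 0.764, 1.59, 1.79 and 0.679 in KO_Ex. The genotypes overlapped after training, through KO_Ex 5, and in the main test Ccna2 was higher at rest (log2 fold change 0.56 ± 0.18, adjusted p = 0.0486; adjusted p = 0.0792 over all genes) and after training (log2 fold change 0.70 ± 0.18, adjusted p = 0.00653). Exons of Ccna2 overlap Exosc9 on the other strand over 12.5% of their length.

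**Figure D3:**
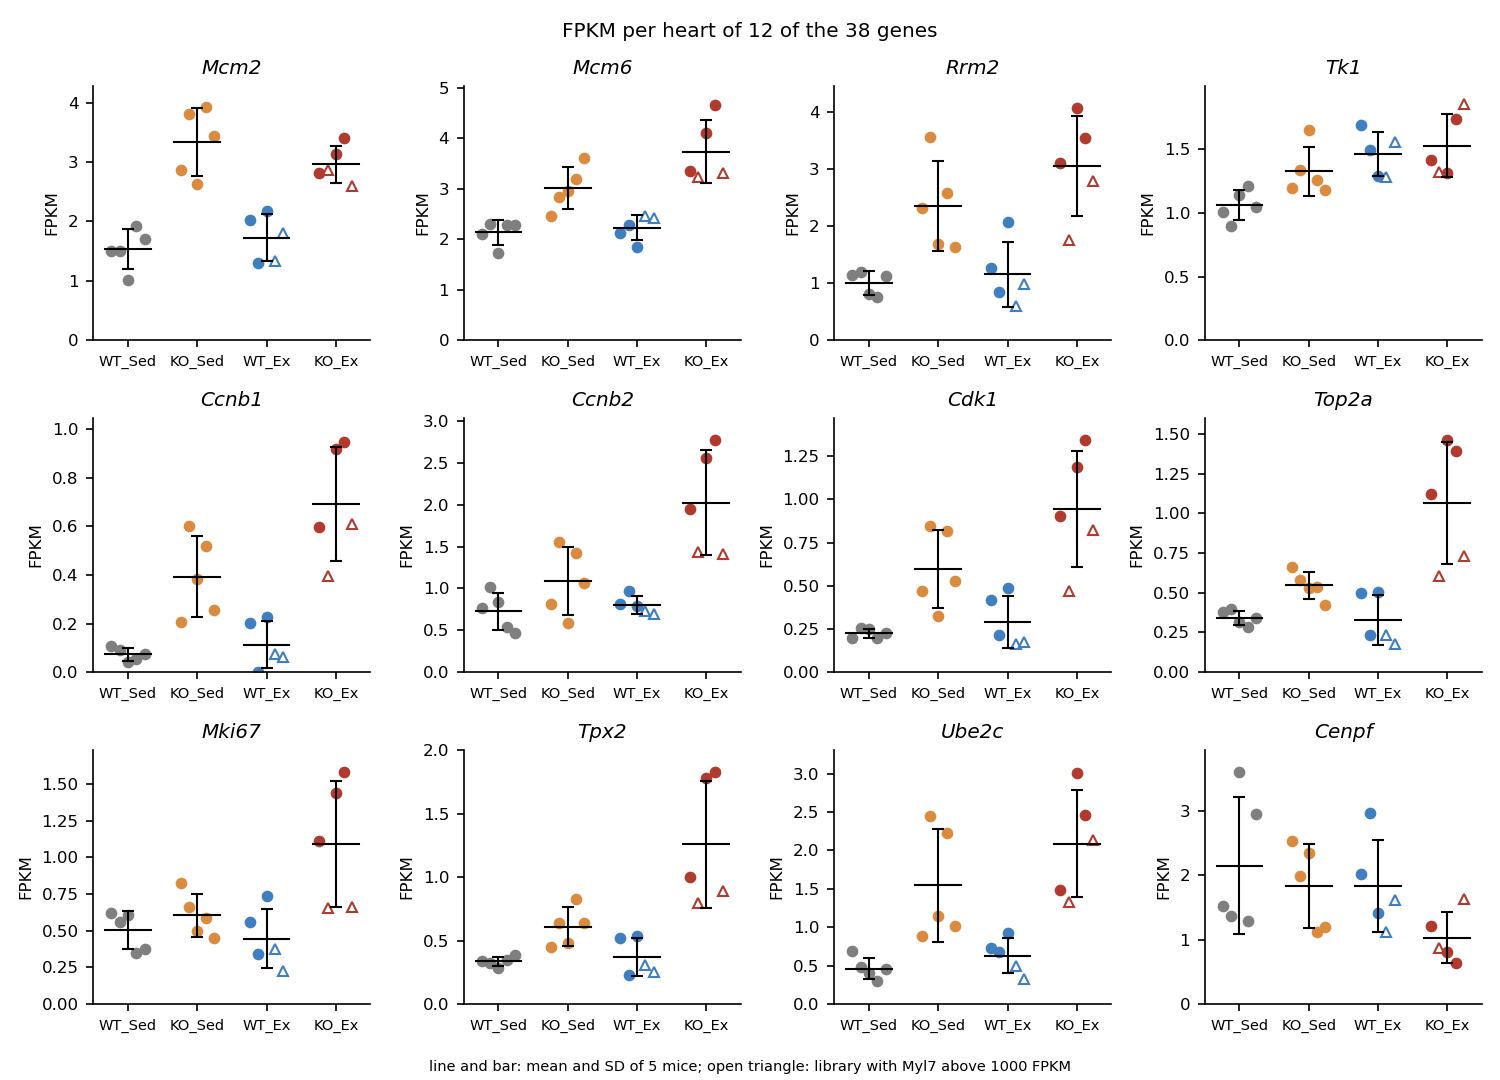
FPKM of 12 of the genes in each library (vertical axes, FPKM, each from 0) by group, with circles for libraries, open triangles for the 4 libraries with high Myl7, and a line and bar for the mean and SD of 5. In Cdk1, Ccnb2, Top2a and Tpx2 the KO_Ex triangles lie at the bottom of their group, and the mean of Cenpf is lowest in KO_Ex.

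Chromosome structure genes differed past the threshold after training and not at rest. The interaction passed for none of them over all 20 libraries. Top2a, Mki67, Ncapg and Ncaph summed to 1.2, 1.74, 1.11 and 3.03 FPKM. None of the 4 passed between sedentary genotypes, and in the fit over all genes 4 of 4 were higher in KO_Ex than in WT_Ex. Top2a (ENSMUSG00000020914, minus strand of chromosome 11, 98992943 to 99024189), the topoisomerase that untangles sister chromatids and whose window above holds CCAAT and TTTGAA, read 0.379, 0.395, 0.317, 0.285 and 0.340 FPKM in WT_Sed and 0.661, 0.579, 0.531, 0.537 and 0.425 in KO_Sed. It read 0.499, 0.236, 0.506, 0.231 and 0.177 in WT_Ex and 1.12, 0.605, 1.46, 1.40 and 0.735 in KO_Ex. Neither pair of genotypes overlapped. It rose with training in labelled knockout mice (log2 fold change 0.55 ± 0.15, adjusted p = 0.0118) and was higher than in trained wild-type mice (log2 fold change 0.90 ± 0.15, adjusted p = 0.000195). Its interaction over all 20 libraries did not pass (log2 fold change 0.59 ± 0.22, adjusted p = 0.103).

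Mki67, the proliferation antigen Ki-67 that coats mitotic chromosomes, read 0.618, 0.559, 0.609, 0.348 and 0.376 FPKM in WT_Sed and 0.827, 0.663, 0.495, 0.583 and 0.449 in KO_Sed. It read 0.556, 0.338, 0.733, 0.372 and 0.224 in WT_Ex and 1.11, 0.657, 1.44, 1.58 and 0.658 in KO_Ex, where libraries 2 and 5 lay within the trained wild-type range. It passed between trained genotypes (log2 fold change 0.73 ± 0.18, adjusted p = 0.00395) and for training in labelled knockout mice (log2 fold change 0.49 ± 0.18, adjusted p = 0.0436), the latter in the main test alone (adjusted p = 0.0695 over all genes). The condensin subunit Ncapg read 0.0432, 0.133, 0.0743, 0.0155 and 0.0573 FPKM in WT_Sed and 0.0645, 0.0493, 0.0549, 0.106 and 0.0765 in KO_Sed. It read 0.0495, 0.0401, 0.0340, 0.0227 and 0.0657 in WT_Ex and 0.169, 0.112, 0.206, 0.168 and 0.102 in KO_Ex. Over all genes Ncapg rose with training in labelled knockout mice (log2 fold change 0.19 ± 0.05, adjusted p = 0.0174), and 13.4% of its exon length overlaps Lcorl. Its partner Ncaph was at 0.286 ± 0.0615, 0.519 ± 0.0531, 0.298 ± 0.0688 and 0.723 ± 0.263 FPKM (mean ± SD, n = 5; WT_Sed, KO_Sed, WT_Ex, KO_Ex, here and wherever 4 means follow each other), higher between trained genotypes (log2 fold change 0.59 ± 0.12, adjusted p = 0.00118). The genotypes did not overlap for Ncaph in either training state, although it did not pass at rest.

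Spindle kinases and spindle proteins had their highest summed level in KO_Ex, followed by KO_Sed, WT_Ex and WT_Sed. The 7 genes (Aurka, Plk1, Tpx2, Nusap1, Kif11, Kif4 and Hmmr) summed to 2.25, 3.74, 2.36 and 6.06 FPKM. In the fit over all genes 1 of 7 (Aurka) was higher at rest, 7 of 7 were higher after training, and Tpx2 rose with training in labelled knockout mice. Tpx2 (ENSMUSG00000027469, plus strand of chromosome 2, 152847964 to 152895321), which activates Aurora A and nucleates spindle microtubules, read 0.338, 0.321, 0.287, 0.351 and 0.385 FPKM in WT_Sed and 0.447, 0.638, 0.484, 0.832 and 0.641 in KO_Sed. It read 0.523, 0.227, 0.539, 0.309 and 0.255 in WT_Ex and 1.00, 0.797, 1.78, 1.83 and 0.889 in KO_Ex, with no overlap. The trained genotypes stood 3.40 times apart (log2 fold change 0.99 ± 0.16, adjusted p = 0.000130), and training in labelled knockout mice passed (log2 fold change 0.63 ± 0.16, adjusted p = 0.00661).

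Aurka, the Aurora A kinase, read 0.382, 0.518, 0.369, 0.454 and 0.569 FPKM in WT_Sed and 0.750, 1.16, 0.817, 1.27 and 0.660 in KO_Sed. It read 0.572, 0.504, 0.924, 0.507 and 0.498 in WT_Ex and 0.808, 0.902, 1.69, 1.42 and 1.2 in KO_Ex. The sedentary genotypes did not overlap, and WT_Ex 3 lay among the KO_Ex values. Aurka passed at rest (log2 fold change 0.56 ± 0.15, adjusted p = 0.0191) and after training (log2 fold change 0.62 ± 0.15, adjusted p = 0.00451).

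Plk1, the Polo kinase, read 0.301, 0.540, 0.292, 0.746 and 0.471 FPKM in WT_Sed and 0.449, 0.679, 0.940, 1.02 and 0.626 in KO_Sed. It read 0.363, 0.419, 0.546, 0.413 and 0.241 in WT_Ex and 1.00, 0.508, 1.78, 1.67 and 1.03 in KO_Ex. Nusap1, a microtubule bundler, read 0.452, 0.677, 0.359, 0.243 and 0.566 FPKM in WT_Sed and 0.440, 0.650, 0.382, 0.689 and 0.533 in KO_Sed, and 0.640, 0.314, 0.547, 0.369 and 0.196 in WT_Ex and 0.728, 0.70, 1.14, 1.09 and 0.645 in KO_Ex. Both passed between trained genotypes in the main test (log2 fold change 0.87 ± 0.20, adjusted p = 0.00230 for Plk1; log2 fold change 0.58 ± 0.16, adjusted p = 0.00889 for Nusap1). The spindle pole motor Kif11 was at 0.299 ± 0.0847, 0.440 ± 0.143, 0.350 ± 0.134 and 0.726 ± 0.274. The chromosome motor Kif4 read 0.139, 0.125, 0.159, 0.159 and 0.122 FPKM in WT_Sed and 0.255, 0.325, 0.141, 0.285 and 0.160 in KO_Sed, and 0.199, 0.103, 0.218, 0.165 and 0.0722 in WT_Ex and 0.331, 0.161, 0.415, 0.504 and 0.307 in KO_Ex. Hmmr, a spindle and hyaluronan receptor protein, was at 0.0826 ± 0.0520, 0.247 ± 0.0812, 0.0809 ± 0.0533 and 0.471 ± 0.228. These 3 were higher in KO_Ex than in WT_Ex in the fit over all genes, with log2 fold changes of 0.51 (adjusted p = 0.0242), 0.36 (adjusted p = 0.0137) and 0.71 (adjusted p = 0.000494). The FPKM of Kif11 and Kif20a did not convert to whole reads, so the read-based fit leaves them out.

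Checkpoint, kinetochore and chromosomal passenger genes had the smallest ratios of sums between genotypes of the 7 roles, 1.18 at rest and 1.29 after training. These sums include the exception, Cenpf, whose own ratios were 0.85 and 0.56. The ratios of the role's other genes ran from 1.27 (Bub1b) to 2.52 (Cdca8) at rest. After training they ran from 1.62 (Bub1b) to 4.79 (Cenpe), so the small ratios of sums do not describe these genes. The 7 genes (Bub1, Bub1b, Cenpe, Cenpf, Aurkb, Birc5 and Cdca8) summed to 3.41, 4.02, 3.50 and 4.50 FPKM, of which Cenpf alone made up 2.14, 1.83, 1.82 and 1.03. Over all genes 0 of 7 passed at rest and 3 of 7 (Cenpe, Aurkb and Cdca8) were higher after training. Birc5, survivin, was at 0.295 ± 0.0712, 0.515 ± 0.106, 0.443 ± 0.124 and 0.780 ± 0.305 FPKM and passed between trained genotypes in the main test alone (log2 fold change 0.41 ± 0.15, adjusted p = 0.0467; log2 fold change 0.41 ± 0.15, adjusted p = 0.0617 over all genes). Bub1b, the checkpoint kinase BubR1, was at 0.359 ± 0.0828, 0.455 ± 0.10, 0.484 ± 0.123 and 0.785 ± 0.341. It did not pass between trained genotypes (log2 fold change 0.35 ± 0.16, adjusted p = 0.106). Bub1 was at 0.0844 ± 0.0495, 0.211 ± 0.0728, 0.120 ± 0.0977 and 0.290 ± 0.198 and did not pass there either (log2 fold change 0.33 ± 0.14, adjusted p = 0.122).

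Cenpf (ENSMUSG00000026605, minus strand of chromosome 1, 189640606 to 189688086) encodes a large kinetochore protein that also binds microtubules outside mitosis. It read 1.52, 1.36, 3.60, 1.29 and 2.94 FPKM in WT_Sed and 2.53, 1.98, 2.34, 1.12 and 1.19 in KO_Sed. It read 2.02, 2.96, 1.41, 1.12 and 1.62 in WT_Ex and 1.21, 0.863, 0.802, 0.633 and 1.64 in KO_Ex. The ranges overlapped in both. Its mean was lower in labelled knockout hearts in both comparisons, and neither passed (log2 fold change -0.14 ± 0.26, adjusted p = 0.750 at rest; log2 fold change -0.59 ± 0.26, adjusted p = 0.102 after training), nor did training in labelled knockout mice (log2 fold change -0.60 ± 0.26, adjusted p = 0.0967). It was the most deeply counted of the 38 genes, and its values still differed widely between mice of 1 group. The other kinetochore and passenger genes were scarce. The kinetochore motor Cenpe read 0.0945, 0.0870, 0.129, 0.0381 and 0.0418 FPKM in WT_Sed and 0.123, 0.133, 0.120, 0.0792 and 0.103 in KO_Sed. It read 0.0811, 0.0164, 0.0278, 0.0186 and 0.0616 in WT_Ex and 0.241, 0.0811, 0.296, 0.247 and 0.119 in KO_Ex, and it passed between trained genotypes (log2 fold change 0.36 ± 0.07, adjusted p = 0.00190). The passenger kinase Aurkb was at 0.278 ± 0.0766, 0.467 ± 0.0921, 0.378 ± 0.212 and 0.794 ± 0.287 (log2 fold change 0.56 ± 0.16, adjusted p = 0.0173 between trained genotypes), and borealin, Cdca8, at 0.170 ± 0.0845, 0.429 ± 0.200, 0.208 ± 0.0486 and 0.630 ± 0.194 (log2 fold change 0.66 ± 0.14, adjusted p = 0.00203).

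Partners of the anaphase promoting complex had the highest ratio of sums between sedentary genotypes of the 7 roles. Ube2c and Cdc20 summed to 1.33, 3.15, 1.77 and 4.78 FPKM, 2.37 times as much in KO_Sed as in WT_Sed. Ube2c (ENSMUSG00000001403, plus strand of chromosome 2, 164769898 to 164778822), the ubiquitin-conjugating enzyme of the complex, read 0.686, 0.480, 0.404, 0.295 and 0.450 FPKM in WT_Sed and 0.891, 2.45, 1.14, 2.23 and 1.02 in KO_Sed. It read 0.730, 0.681, 0.923, 0.493 and 0.332 in WT_Ex and 1.49, 1.33, 3.02, 2.47 and 2.13 in KO_Ex. Neither pair of genotypes overlapped. Ube2c was higher in the labelled knockout at rest (log2 fold change 1.03 ± 0.22, adjusted p = 0.00449) and after training (log2 fold change 1.17 ± 0.22, adjusted p = 0.000465). The gene it overlaps, Tnnc2, averaged 0.0151 FPKM, far below Ube2c. Cdc20, the activator that the spindle checkpoint restrains, read 0.900, 0.669, 0.844, 0.996 and 0.940 FPKM in WT_Sed and 1.18, 1.57, 1.56, 2.15 and 1.58 in KO_Sed. It read 1.07, 1.14, 1.86, 0.572 and 1.07 in WT_Ex and 2.14, 1.62, 3.77, 3.19 and 2.72 in KO_Ex. The genotypes overlapped after training alone, through WT_Ex 3 and KO_Ex 2. It passed at rest (log2 fold change 0.61 ± 0.19, adjusted p = 0.0380), after training (log2 fold change 0.96 ± 0.19, adjusted p = 0.000704) and for training in labelled knockout mice (log2 fold change 0.57 ± 0.19, adjusted p = 0.0296). Over all genes its adjusted p was 0.0698, 0.00163 and 0.0546, so 2 of these 3 calls held in the main test alone.

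Cytokinesis genes were ordered the same way by their summed level. The 6 genes (Racgap1, Kif20a, Kif23, Prc1, Anln and Ect2) summed to 1.48, 2.60, 1.90 and 4.20 FPKM. In the fit over all genes 1 of 6 (Racgap1) was higher at rest, 5 of 6 after training, and Anln and Prc1 rose with training in labelled knockout mice. Racgap1 (ENSMUSG00000023015, minus strand of chromosome 15, 99620496 to 99651656), a subunit of centralspindlin, read 0.237, 0.265, 0.157, 0.371 and 0.350 FPKM in WT_Sed and 0.494, 0.724, 0.420, 0.848 and 0.687 in KO_Sed. It read 0.346, 0.250, 0.534, 0.279 and 0.290 in WT_Ex and 0.991, 0.559, 1.26, 1.2 and 0.740 in KO_Ex. Neither pair of genotypes overlapped, and both comparisons passed (log2 fold change 0.54 ± 0.15, adjusted p = 0.0212 at rest; log2 fold change 0.77 ± 0.15, adjusted p = 0.000584 after training). Anln, anillin of the contractile ring, read 0.293, 0.368, 0.214, 0.361 and 0.228 in KO_Sed and 0.576, 0.411, 0.826, 0.744 and 0.549 in KO_Ex, the one gene of the 38 whose labelled knockout groups did not overlap with training (log2 fold change 0.49 ± 0.10, adjusted p = 0.00213). Anln was at 0.168 ± 0.0845 in WT_Sed and 0.233 ± 0.0276 in WT_Ex.

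Kif20a, a motor of the central spindle, read 0.389, 0.494, 0.538, 0.403 and 0.463 FPKM in WT_Sed and 0.70, 0.865, 0.596, 0.935 and 0.777 in KO_Sed. It read 0.658, 0.355, 0.806, 0.296 and 0.402 in WT_Ex and 1.08, 0.675, 1.31, 1.48 and 0.771 in KO_Ex, higher between trained genotypes (log2 fold change 0.64 ± 0.15, adjusted p = 0.00364), with 29.3% of its exon length shared with Cdc23. Prc1, which bundles midzone microtubules, was at 0.300 ± 0.0586, 0.435 ± 0.10, 0.425 ± 0.131 and 0.781 ± 0.246 (log2 fold change 0.44 ± 0.13, adjusted p = 0.0226 for training in labelled knockout mice). Kif23, the motor of centralspindlin, was at 0.198 ± 0.0818, 0.296 ± 0.0564, 0.263 ± 0.0895 and 0.492 ± 0.142 (log2 fold change 0.38 ± 0.11, adjusted p = 0.0184 between trained genotypes). Ect2, the exchange factor that activates RhoA at the cell equator, read 0.0378, 0.0696, 0.130, 0.0711 and 0.0752 FPKM in WT_Sed and 0.212, 0.166, 0.168, 0.177 and 0.109 in KO_Sed. It read 0.167, 0.0526, 0.156, 0.159 and 0.160 in WT_Ex and 0.269, 0.147, 0.466, 0.470 and 0.114 in KO_Ex. Library 2 of WT_Ex was the lowest of the trained libraries, 2 KO_Ex libraries lay within the WT_Ex range, and Ect2 did not pass between trained genotypes (log2 fold change 0.29 ± 0.11, adjusted p = 0.0781).

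**Figure D4:**
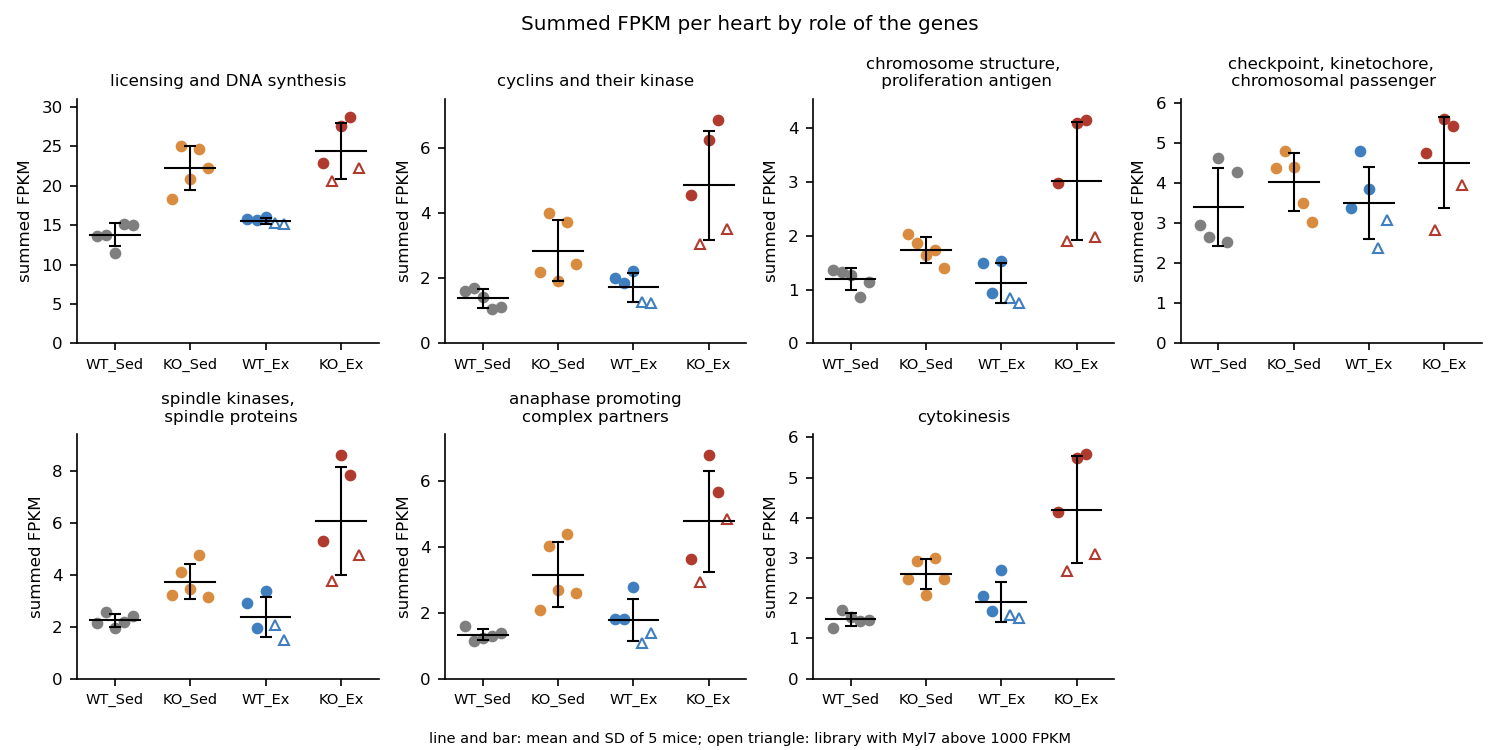
Summed FPKM of the genes of each of 7 roles in each library (vertical axes, FPKM, each from 0) by group, with circles for libraries, open triangles for the 4 libraries with high Myl7, and a line and bar for the mean and SD of 5. Cyclins with Cdk1 step from 1.72 in WT_Ex to 4.85 in KO_Ex on average, checkpoint and kinetochore genes, with Cenpf among them, from 3.50 to 4.50.

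Training in labelled knockout mice gave counts that depended on which libraries were kept. Of the 38 genes Ccnb2, Top2a, Tpx2, Anln, Ncapg and Prc1 rose in the fit over all genes, where 7.3% of all genes did. The members were chosen with earlier results of these data known, so a difference between such shares was not tested. Without the 4 libraries with high Myl7, 24 of 38 rose (7.93% of all genes), in the proportions 0 of 8 licensing genes, 4 of 4 cyclins and Cdk1, 4 of 4 chromosome structure genes, 4 of 7 checkpoint genes, 5 of 7 spindle genes, 1 of 2 partners of the anaphase promoting complex and 6 of 6 cytokinesis genes. In the main test those counts were 14 of 24 without these libraries (12.8% of genes tested) against 5 of 24 with them. The interaction then passed for Top2a in the main test (3.62% of genes tested were higher) and for Top2a, Ncapg and Cenpe over all genes (1.98%). Licensing genes made up 55.5, 55.2, 56.2 and 47.9% of the summed FPKM in WT_Sed, KO_Sed, WT_Ex and KO_Ex. The training ratio in labelled knockout mice was 1.10 for licensing genes and 1.70 for cyclins and Cdk1, a difference between roles that was not tested.

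Scaling also entered this comparison, and the deposited values are scaled so that the median gene is level between libraries. Rescaling each library to a common FPKM sum, as TPM does, moved the median of all tested genes by 0.23 for training in labelled knockout mice, 0.25 between trained genotypes and 0.16 for the interaction, on the log2 scale. Under it 18 members were higher for training in labelled knockout mice, and so were 29.5% of all tested genes, with 4.59% lower, against 12.1 and 16.3% as deposited. Between trained genotypes 37.4% of genes were higher and 5.75% lower, against 12.5 and 15.4%. For training in labelled knockout mice the fold change of Cenpf stayed negative, at -0.42 rescaled against -0.60 as deposited. Those of Mcm2, Mcm4 and Mcm7 were -0.14, 0.02 and -0.00 as deposited and 0.10, 0.26 and 0.24 rescaled, so no direction is given for them.

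Within a group the highest or lowest values of many genes came from the same libraries. Among the KO_Ex libraries number 4 held the highest value for 19 of the 38 genes and number 3 for 16, while number 2 held the lowest for 23 and number 5 for 12. Among the WT_Ex libraries number 3 held the highest for 22, and numbers 5 and 4, the pair with high Myl7, the lowest for 14 and 10. KO_Sed libraries 2 and 4 held the highest for 16 and 12. In WT_Sed each of the 5 libraries held the highest for 6 to 10 genes and the lowest for 3 to 12, with numbers 3 and 4 at 12 each. These counts describe single hearts and carry no test.

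Other genes of the pathway, from lists that do not hold the 38, moved in part with them. They were tested in the main fit, and from each list the 4 with the lowest adjusted p are named. In that fit 6.96% of genes were higher and 6.32% lower at rest, and 12.5 and 15.4% after training. With training in labelled knockout mice 12.1% of genes rose and 16.3% fell. Of 21 other mitotic genes tested, 11 were higher and 0 lower at rest, 15 were higher and 1 lower after training, and with training in labelled knockout mice 2 rose and 2 fell. Ckap2 (log2 fold change 1.19 ± 0.15, adjusted p = 7.49e-06 between trained genotypes) and Ckap2l (log2 fold change 1.10 ± 0.16, adjusted p = 2.77e-05) encode microtubule proteins of the spindle. Tubb5, a tubulin, was higher at rest (log2 fold change 0.71 ± 0.10, adjusted p = 0.000219). Pttg1, securin, whose destruction frees sister chromatids, was lower between trained genotypes (log2 fold change -0.78 ± 0.10, adjusted p = 7.97e-06), and its interaction passed (log2 fold change -0.60 ± 0.14, adjusted p = 0.0174).

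Of 20 further licensing and replication fork genes 4 were higher and 0 lower at rest, and after training 5 were higher and 2 lower. All 27 genes of this list summed to 86.2, 92.8, 81.4 and 76.1 FPKM, lowest in KO_Ex. The list of other mitotic genes, 42 in all, summed to 122, 160, 139 and 165 FPKM, highest in KO_Ex. With training in labelled knockout mice 0 of the 20 genes tested rose and 4 fell, against 12.1 and 16.3% of all genes tested. Uhrf1, which maintains DNA methylation behind the fork, was higher at rest (log2 fold change 1.29 ± 0.20, adjusted p = 0.000332), and the ligase Lig1 was higher between trained genotypes (log2 fold change 0.61 ± 0.13, adjusted p = 0.00143). Dut, which keeps uracil out of DNA, fell with training in labelled knockout mice (log2 fold change -0.76 ± 0.09, adjusted p = 1.44e-05), and geminin, Gmnn, the inhibitor of licensing, was lower between trained genotypes (log2 fold change -0.74 ± 0.11, adjusted p = 6.80e-05).

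Upstream regulators were measured as well. Of 17 pocket protein, E2F, DREAM and B-Myb complex genes tested, 1 was higher and 2 lower at rest, and 5 were higher and 1 lower after training. With training in labelled knockout mice 2 rose (Foxm1 and Nfya) and 3 fell (Nfyc, Tfdp2 and Lin52). These counts are close to the shares of all genes tested, 12.1 and 16.3%. E2f1, an activator of licensing genes, was at 0.462 ± 0.180, 2.03 ± 0.622, 0.648 ± 0.238 and 2.58 ± 0.605 FPKM, higher at rest (log2 fold change 1.38 ± 0.18, adjusted p = 7.76e-05) and after training (log2 fold change 1.43 ± 0.18, adjusted p = 7.44e-06). Foxm1, an activator of mitotic genes, rose with training in labelled knockout mice (log2 fold change 0.53 ± 0.13, adjusted p = 0.00595) and was higher between trained genotypes (log2 fold change 0.65 ± 0.13, adjusted p = 0.00110), as was E2f3 (log2 fold change 0.62 ± 0.15, adjusted p = 0.00395). Nfyc, a subunit of the CCAAT-binding factor NF-Y, was lower between trained genotypes (log2 fold change -0.56 ± 0.07, adjusted p = 3.42e-06). Of 11 G1 cyclins and kinases 3 were higher and 0 lower at rest and after training alike. Between trained genotypes these were Ccnd2 (log2 fold change 1.25 ± 0.21, adjusted p = 0.000133), Ccne1 (log2 fold change 0.76 ± 0.13, adjusted p = 0.000250), which starts DNA synthesis, and Cdk6 (log2 fold change 0.41 ± 0.12, adjusted p = 0.0128), and Ccnd3 rose with training in wild-type mice (log2 fold change 0.43 ± 0.09, adjusted p = 0.0143). Of 8 inhibitors Cdkn1a, which encodes p21, was higher at rest (log2 fold change 1.16 ± 0.37, adjusted p = 0.0417). Between trained genotypes 0 inhibitors were higher and 2 (Cdkn1c and Gadd45a) were lower, and Cdkn1c was lower in the interaction. With training in labelled knockout mice Btg2 rose (log2 fold change 0.49 ± 0.16, adjusted p = 0.0310), and Gadd45a (log2 fold change -0.79 ± 0.16, adjusted p = 0.00127) and Cdkn1c, p57 (log2 fold change -0.82 ± 0.19, adjusted p = 0.00382), fell.

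Markers of cell types moved with the groups too, and their part in the results above was not tested. Counts of markers here and below are from the main fit. In it 6.96% of genes tested were higher and 6.32% lower at rest, and 12.5 and 15.4% after training. With training in labelled knockout mice 12.1% rose and 16.3% fell, and for the interaction 2.32% were higher and 5% lower. Macrophage markers, 10 genes, summed to 224, 314, 255 and 571 FPKM, with ranges of 176 to 260, 290 to 332, 185 to 334 and 389 to 701. Of the 10, 5 were higher at rest, 10 were higher after training, 10 rose with training in labelled knockout mice, and for 3 (Adgre1, Mrc1 and Csf1r) the interaction passed. The KO_Ex libraries read 658, 389, 648, 701 and 462, so numbers 2 and 5 were the lowest here as in the summed cell cycle genes. This order was not particular to macrophage markers. Numbers 2 and 5 were also the lowest KO_Ex libraries for activated fibroblast and endothelial markers, and the highest for cardiomyocyte markers. Fibroblast markers, 6 genes, summed to 138, 164, 162 and 328 FPKM, with 0 higher at rest and 5 of 6 after training. Of these 6, 4 rose with training in labelled knockout mice, and the interaction passed for 3. Activated fibroblast markers, 4 genes, summed to 86.3, 384, 148 and 535 FPKM, with 1 of 4 (Acta2) higher at rest and 4 of 4 after training. At rest Postn, Cthrc1 and Tnc did not pass, and the median log2 fold change of the 4 genes was 0.42. The step of the sum at rest therefore does not describe the list. In this list 3 of 4 rose with training in labelled knockout mice, and the interaction passed for 2.

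Atrial markers, 4 genes (Myl7, Myl4, Sln and Nppa), summed to 85.6, 517, 2903 and 3099 FPKM, with ranges of 34.3 to 237, 265 to 900, 13.5 to 8899 and 1476 to 5419. Every KO_Sed library was above every WT_Sed library in this sum, as in the cell cycle sum. Nppa, a natriuretic peptide, carried most of it at rest, at 53.2 ± 28.0 and 510 ± 255 FPKM, whereas Myl7 was at 22.5 ± 42.2 and 4.63 ± 5.87. At rest 0 of the 4 passed, and after training 1 of 4 (Nppa) was higher.

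Endothelial markers, 7 genes, lay the other way, at 199, 152, 206 and 149 FPKM, with 3 of 7 lower at rest and 4 of 7 lower after training. Cardiomyocyte markers, 5 genes, summed to 9091, 8600, 8681 and 5620 FPKM, so the labelled tissue showed its defining transcripts in every group, and 2 of 5 were lower at rest and 4 of 5 after training. Of these 5, 3 fell with training in labelled knockout mice, and the interaction passed for 2, both lower. Lymphoid markers, which would mark lymphoid blood cells or thymus taken along with the heart, were low throughout. T and NK cell markers summed to 0.0768 to 0.941 FPKM over the libraries, B cell markers to 0.544 to 2.33, and thymus markers to 0.105 to 0.527. Neutrophil markers summed to 0.310 to 6.54 FPKM. Erythroid markers, given under other observations, were not low, at 213 to 2456 FPKM over the libraries.

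**Figure D5:**
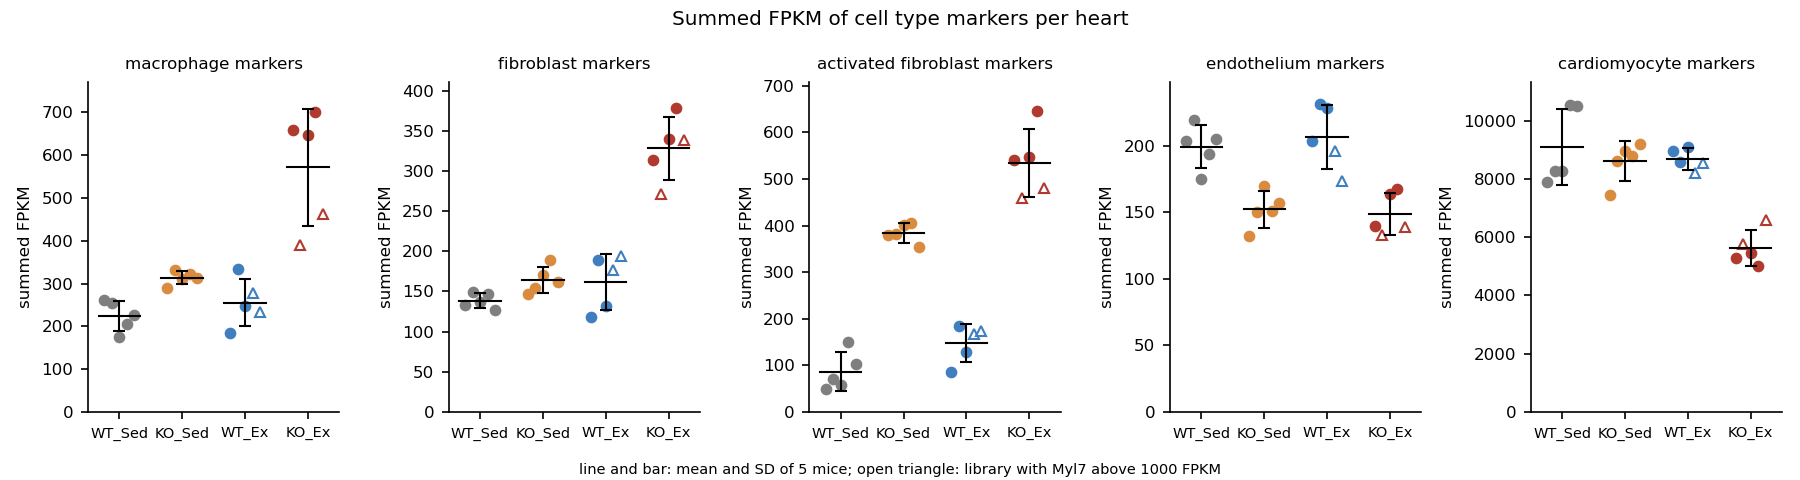
Summed FPKM of marker genes of cell types in each library (vertical axes, FPKM, each from 0) by group, with circles for libraries, open triangles for the 4 libraries with high Myl7, and a line and bar for the mean and SD of 5. Macrophage markers lie at 389 to 701 in KO_Ex and at 185 to 334 in WT_Ex.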

How the data were processed

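Hearts of 20 mice were sequenced as poly-A selected libraries made with a directional kit on a HiSeq instrument, per the labels' protocols. The values used are FPKM per gene as the authors deposited them, 25851 genes by 20 libraries. The submitters' processing notes name HISAT2 2.0.5, featureCounts 1.5.0-p3, DESeq2 1.20.0 and mm10, without their roles. FPKM times exon length gave whole reads, within 0.01 reads, for 24968 genes (96.6%), and these totals came to 14.2 to 30.4 M reads per library. Library sizes behind the FPKM were median-ratio scaled, so no further scaling was applied, and 0 columns belonged to no sample.

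Log2(FPKM + 0.5) was fitted with limma 3.58.1 in R 4.3.3 over all 4 groups (16 residual degrees of freedom, eBayes with a trend, two-sided). The minimum for testing was a mean of 0.5 FPKM (13723 genes passed, 12128 did not), with Benjamini-Hochberg adjustment over all of them in each of 5 comparisons and a threshold of 0.05. The same fit without a minimum covers all 38 members. The fits were checked on simulated data. Tables used Python 3.11.15, pandas 2.3.3 and numpy 2.4.6, and figures matplotlib 3.10.9.

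All 38 members are named. Values of every library are given for up to 20 called members, ranked by adjusted p, and for the highest and lowest of each role, with a few others (Anln in part) for what they show, and from each other list of the pathway up to 4 called genes, ranked likewise. The members and lists were chosen with earlier results of these data known, so no p is given for a list. Alternatives covered pseudocounts, minimum levels, scaling, weights, voom on recovered reads, a replicate block, and leaving out each library.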

Additional observations from a re-analysis of the deposited data

Results flagged for a closer look

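The values of 27 of the genes and the summed FPKM were checked in each group for a library far from the other 4, with Dixon's criterion (95% critical value 0.71 for 5 samples), and 4 of 112 groups of values passed it. Chance alone passes about 1 in 20. Ccna2 was 0.536 FPKM in WT_Sed 1, above the other 4 libraries of its group at 0.281 to 0.342. Aurka was 0.924 FPKM in WT_Ex 3, against 0.498 to 0.572 in the others. Mcm5 was 1.19 FPKM in KO_Sed 1, against 2.14 to 2.46. Ect2 was 0.0526 FPKM in WT_Ex 2, against 0.156 to 0.167. WT_Sed 1 and KO_Sed 1 are among the libraries with Arntl above 2 FPKM, and none of the 4 is a library with high Myl7.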

How the results depend on the processing

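Between trained genotypes 20 members passed. Birc5 did not pass without a minimum level, and the other 19 kept their call, where tested, under each other pseudocount, minimum, scaling, weighting or model listed under processing and in each fit that left out 1 library. The count was 31 without a minimum level or with a minimum of 0.1, and 4 of 5 tested at a minimum of 2. Without a minimum it was 32 without the libraries with high Myl7 and 31 without those with high Arntl. At rest 13 members passed, and 5 of 5 tested at a minimum of 2. With log2 Arntl as a covariate 4 passed (1.98% of genes tested were higher). The fit without the high Arntl libraries, with 1 WT_Sed library left, is described above. At rest, leaving out 1 library gave 7 to 13. The count was 8 without WT_Sed 1 or KO_Sed 5 and 7 without WT_Sed 3, KO_Sed 2 or KO_Sed 4. Training in wild-type mice gave 1 (Tk1) with a pseudocount of 0.1, array weights or no variance trend, and 0 to 1 without 1 library. Training in labelled knockout mice gave 5, against 9 at a minimum of 0.1, 0 of 5 tested at a minimum of 2 and 18 with TPM scaling. Higher were 12.1% of genes tested in the main fit and 29.5% with TPM scaling. A common sum without mitochondrial genes gave 13 and moved the median of all tested genes by 0.16. That training also gave 13 with array weights (1 of them, Cenpf, lower) or with log2 Myl7 as a covariate. It gave 14 without the high Myl7 libraries (24 without a minimum), and, without a minimum, 8 by voom and 3 without the high Arntl libraries. Leaving out 1 library gave 3 to 10, with 3 without KO_Sed 2, KO_Sed 3, KO_Ex 3 or KO_Ex 4 and 10 without KO_Ex 2. The interaction gave 0, against 5 with array weights, 1 (Top2a) without the high Myl7 libraries, with log2 Myl7 as a covariate or without KO_Ex 2, and 3 without both a minimum and those libraries, and 0 to 1 over fits without 1 library. The log2 ratio of summed FPKM moved by more than 1 SD between libraries under TPM scaling, to 0.64 for training in labelled knockout mice and 1.2 between trained genotypes. For that training it was 0.36 as deposited, 0.55 without the high Myl7 libraries and 0.54 with the common sum, shifts under 1 SD. The cause was not tested for any of these. Where no share of all genes is given, a count cannot be read as particular to the members. Where a share is given, its difference from the members was not tested. No value changed sign where it was called. Same-numbered libraries correlated at -0.28 to 0.48 in their deviations from group means, and 5 of 20 correlated best with their own number, so the numbers do not pair the mice. With the number as a replicate block 13, 0, 6, 19 and 0 members passed at rest, for training in wild-type mice, for training in labelled knockout mice, between trained genotypes and for the interaction. Depth limits the scarcest genes, where 244 reads of Ncapg are spread over 20 libraries.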

Other observations

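Erythroid markers, 7 genes, summed to 713, 512, 1486 and 1215 FPKM in WT_Sed, KO_Sed, WT_Ex and KO_Ex, with SDs of 496, 259, 353 and 859. Mesothelial markers, 4 genes, summed to 2.94, 5.27, 23.6 and 14.1 FPKM, and adipocyte markers, 4 genes, to 0.356, 0.364, 37.5 and 48.4 FPKM, with SDs of 56.9 and 99.5 in the trained groups. Pericyte and smooth muscle markers, 5 genes, summed to 139, 104, 133 and 122 FPKM.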
